A study of Drosophila melanogaster with 2 samples.

Results

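Oxidative phosphorylation genes of Drosophila melanogaster were examined for peaks of Rx-eGFP in whole embryos. Rx is a homeodomain transcription factor, known in flies for its part in brain development, and eGFP is the tag by which it was precipitated. The genes were taken by symbol, as all protein-coding genes on the chromosome arms whose symbol starts with ND-, COX, ATPsyn, UQCR- or Sdh, which gave 88 of 13968 protein-coding genes. Chromatin immunoprecipitation with sequencing (ChIP-seq) was done with an antibody against GFP on embryos aged 0 to 24 h that carried an Rx-eGFP transgene. There was 1 group of 2 biological replicates, both of that genotype and age. The embryos' sex was not collected, no untagged embryos were analysed here, and a possible control experiment named in the labels was not analysed here. Whole embryos of all stages in that range were pooled, so the share of nuclei with Rx-eGFP at a site and the occupancy per nucleus cannot be told apart.

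Oxidative phosphorylation takes place in the inner mitochondrial membrane. Complexes I and II pass electrons from NADH and succinate to ubiquinone, complex III passes them on to cytochrome c, and complex IV passes them to oxygen. Complexes I, III and IV pump protons as they do so, and complex V, the ATP synthase, uses the proton gradient to make ATP. Most of the subunits are encoded in the nucleus and needed in every tissue, and in flies many have a second, L-named copy that is known largely from the testis. Transcription factors known at promoters of such housekeeping genes in Drosophila include DREF, which binds the DNA replication-related element (DRE), and M1BP.

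Of the 88 genes, 63 encode subunits, 24 are L-named paralogs and 1, Sdhaf3, encodes an assembly factor of complex II. The symbol rule takes 40 genes of complex I, 8 of complex II, 9 of complex III, 16 of complex IV and 15 of complex V. It leaves out 8 genes of the complexes with other kinds of names, such as blw, which encodes ATP synthase subunit alpha. These are described apart.

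Peaks came from lists of the authors, thresholded on the irreproducible discovery rate (IDR), a measure of how well peaks recur between rankings. The main list was the series-wide list called conservative, with 3250 peaks on the chromosome arms. The other series-wide list had 3423, and the lists of replicates 1 and 2 had 2411 and 2176. A gene was called bound where the summit of a peak lay in it or within 2 kb of it. Peak height is the deposited signal, whose scale is not given, so heights are set side by side only within a list or as a ratio between the replicates. Longer ranked lists, with 98662 peaks on the arms in replicate 1 and 113197 in replicate 2, give a height in each replicate where its thresholded list holds none.

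The sequences at the peaks are shown first, for members whose summit lay within 500 bp of their own start. They are the reference sequence of RefSeq Release 6 (dm6 coordinates), read 5′ to 3′ on the strand of the named gene, up to 100 bp to each side of the summit and shortened to hold at most 30 bases of 5′ UTR. Capitals mark words that were searched, on either strand. The window at ND-ASHI, chrX:6679294-6679494 (minus strand), is that of the highest peak at any member, and its capitals mark TATAAA. The window at ND-51, chr2L:6062781-6062981 (minus strand), holds the homeodomain core TAATTA joined to the E-box word CAGCTG. The windows at COX5A, chr3R:11819418-11819574 (plus strand), and COX5B, chr2L:6557473-6557633 (plus strand), each hold the word ACAGTG, read here as CACTGT. The COX5A window also holds TATAAA, and the COX5B window also holds the BEAF-32 word CGATA on each strand. The window at COX6B, chrX:19744336-19744460 (minus strand), holds CGATA overlapping the GAGA factor word GAGAG.
ND-ASHI: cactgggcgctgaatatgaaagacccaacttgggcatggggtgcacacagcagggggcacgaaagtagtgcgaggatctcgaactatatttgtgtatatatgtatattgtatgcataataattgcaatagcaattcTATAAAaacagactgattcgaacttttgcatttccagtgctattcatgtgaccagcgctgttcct
ND-51: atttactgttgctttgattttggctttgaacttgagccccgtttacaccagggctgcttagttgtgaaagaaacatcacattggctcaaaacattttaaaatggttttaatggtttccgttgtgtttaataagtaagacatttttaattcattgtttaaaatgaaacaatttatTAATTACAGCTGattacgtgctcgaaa
COX5A: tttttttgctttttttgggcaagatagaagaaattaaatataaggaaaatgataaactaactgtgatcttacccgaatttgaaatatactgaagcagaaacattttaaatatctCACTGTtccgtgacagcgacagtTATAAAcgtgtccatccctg
COX5B: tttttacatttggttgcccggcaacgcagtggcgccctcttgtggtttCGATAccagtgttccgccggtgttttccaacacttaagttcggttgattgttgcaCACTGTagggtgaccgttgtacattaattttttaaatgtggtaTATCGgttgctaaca
COX6B: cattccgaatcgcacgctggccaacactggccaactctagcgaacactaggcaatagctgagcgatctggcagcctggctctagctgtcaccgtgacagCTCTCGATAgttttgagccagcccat

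Rx-eGFP peaks lay at 21 of the 88 oxidative phosphorylation genes, a share of 23.9% (95% Wilson interval 16.2 to 33.7%), beside 26.5% of all protein-coding genes. The members' share was thus close to that of the genome. Members are short, with a median length of 1097 bp against 2164.5 bp for all genes, and short genes have less sequence in which a summit can fall. Among genes of at most 5 kb, 21 of 82 members were bound (25.6%, 17.4 to 36%), beside 21.4% of all such genes. In the other series-wide list 23 members were bound (26.1%), beside 27.3% of all genes. The list of replicate 1 had 15 bound members (17%), beside 21.3% of all genes. That of replicate 2 had 13 (14.8%), beside 20.0% of all genes. Both replicate lists held 9 of the 88 members, beside 2334 of the 13968 protein-coding genes. Intervals cover counting error over genes only, no read counts were used here, and the sequencing depth is unknown.

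Ribosomal protein genes, housekeeping genes like these, had larger shares. Of 73 mitochondrial ribosomal protein genes 29 were bound (39.7%, 29.3 to 51.2%), and of 92 cytosolic ribosomal protein genes 62 were bound (67.4%, 57.3 to 76.1%). The interval of the oxidative phosphorylation genes does not reach that of the cytosolic ribosomal protein genes and overlaps that of the mitochondrial ones. The 88 genes include L-named paralogs, and the 63 subunit genes alone had a share of 30.2% (20.2 to 42.4%), nearer to the mitochondrial one. No test of these differences was made, since the members were chosen with results known. The plot of shares by gene group sets these values side by side.

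**Figure D1:**
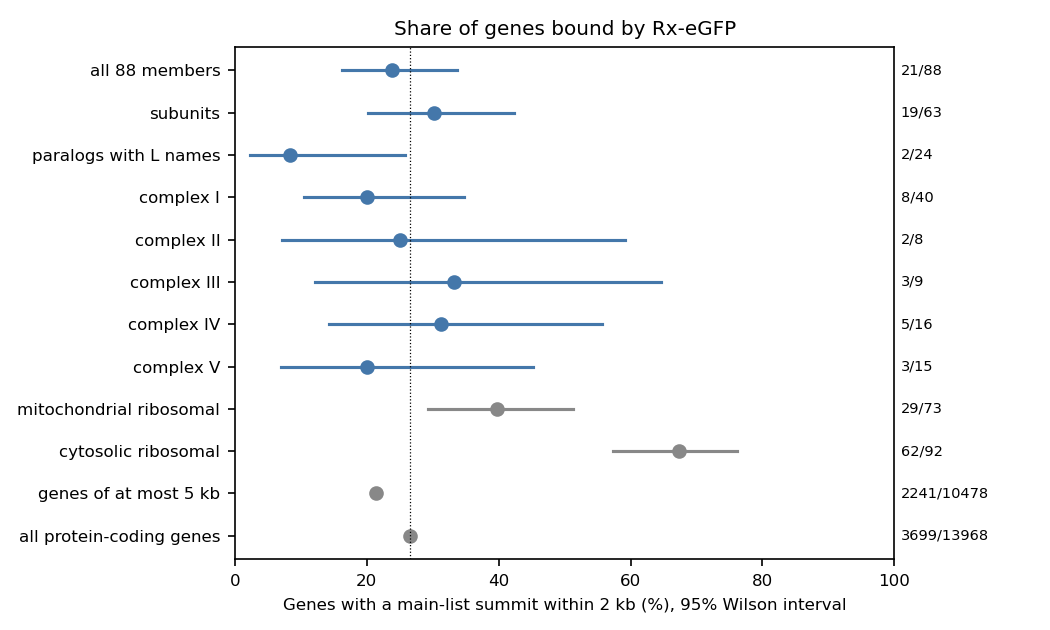
Share of genes with a main-list summit in the gene or within 2 kb (x axis, percent; bars are 95% Wilson intervals) for the 88 members and their subgroups (blue) and for other gene groups (grey), with the number bound and the number of genes at the right. The members' 23.9% lies beside the dotted line, which marks the 26.5% of all protein-coding genes, and the paralogs lie lowest, at 8.33%.

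Some calls depend on the distance rule, since 13 members that were not bound lay within 4 kb of a main-list summit. The same count was not made over all genes, so it is not a trait of the members. The bound members farthest from their summit were COX7C and SdhC, at 1903 and 1947 bp. The nearest members that were not bound were ND-B17, at 2275 bp from a main-list summit, and ATPsyngamma, which encodes the central stalk subunit gamma, at 2504 bp.

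The share bound was lower among the paralogs than among the subunit genes, though the intervals overlap. Of 63 subunit genes 19 were bound (30.2%, 20.2 to 42.4%), near the 26.5% of all protein-coding genes. Of 24 paralogs 2 were bound (8.33%, 2.32 to 25.8%). The paralogs were also shorter, with a median length of 744 bp against 1178 bp for the subunit genes. The bound paralogs were COX5BL and UQCR-6.4L. No paralog had a summit within 500 bp of its own start, and both summits at COX5BL lay closer to the start of another gene. The difference between subunits and paralogs was not tested.

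Complex I, the NADH dehydrogenase, had 8 bound members of 40 (20%, 10.5 to 34.8%), all of them among its 34 subunit genes. Of 7 genes for core subunits, which carry the electron path, 2 were bound, and of 27 for accessory subunits 6 were bound. The core subunits were ND-51, counterpart of human NDUFV1, which binds NADH, and ND-24, counterpart of human NDUFV2, which carries an iron-sulfur cluster.

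The peak at ND-ASHI, an accessory subunit (human NDUFB8), was the highest at any member. It lay at chrX:6679300-6679456 in an intron annotated to another gene, 276 bp upstream of the ND-ASHI start, with a main-list signal of 301.0, rank 191 of 3250. Its height was 155.7 in replicate 1 and 144.3 in replicate 2, and both replicate lists held it. In the main list the start nearest to the summit was that of Fum1, a gene for the tricarboxylic acid cycle enzyme fumarase, 246 bp away. In the lists of replicates 1 and 2 the summit lay 251 and 249 bp upstream of ND-ASHI, and ND-ASHI was the nearest start in both, so the peak lies about midway between the genes. Both genes are thus counted as bound by the same peak.

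ND-MWFE, an accessory subunit (human NDUFA1), had the next highest complex I peak, at chr2R:13158324-13158607, with a signal of 234.1 and rank 329. The height was 116.4 in replicate 1 and 115.8 in replicate 2. Its summit lay 200 bp upstream of ND-MWFE and 21 bp upstream of TppII, which encodes the peptidase tripeptidyl peptidase II.

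ND-24 had a peak over its own 5′ UTR, at chrX:17632000-17632283, with the summit 53 bp after its start and a signal of 141.7. Among the main-list summits at members the replicates differed most here, with a height of 100.9 in replicate 1 and 39.2 in replicate 2, a ratio of 2.57, and the list of replicate 2 did not hold it. ND-51 had a peak 124 bp upstream of its start, at chr2L:6062739-6063022, with a signal of 137.9, and heights of 64.3 in replicate 1 and 66.9 in replicate 2. The replicates were close at ND-51, and both of their lists held the peak. The main-list summit was 108 bp from the start of the divergent gene CG13994, whereas in the list of replicate 1 it lay 107 bp upstream of ND-51 and ND-51 was the nearest start.

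The other 4 bound complex I genes had lower peaks, with main-list signals from 47.1 at ND-MNLL to 115.4 at ND-B14.7. Both replicate lists held the peaks of ND-B14.7 (human NDUFA11) and ND-B22 (human NDUFB9). The peak of ND-42 (human NDUFA10) was in the list of replicate 2 only, and neither replicate list held that of ND-MNLL (human NDUFB1). The summits at ND-B22 and ND-MNLL lay 34 bp after and 52 bp before their own starts, whereas the summit at ND-42 lay 36 bp after the start of Cchl, which encodes the enzyme that attaches heme to cytochrome c.

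Complex II, succinate dehydrogenase, had 2 bound members of 8, SdhB and SdhC. SdhB encodes the iron-sulfur subunit, and its peak at chr2R:6809704-6809987 had a signal of 140.3, with 72.7 in replicate 1 and 63.4 in replicate 2. SdhC encodes a membrane anchor, and its peak had a signal of 72.4, with 45.7 in replicate 1 and 28 in replicate 2. Neither summit was at the gene's own start, as that of SdhB lay 80 bp upstream of CG15237 and that of SdhC lay 1947 bp upstream of SdhC, in the 3′ UTR of another gene. SdhA, which encodes the flavoprotein subunit, was not bound, and its ranked peaks differed between replicates, at 11.1 in replicate 1 and 56.3 in replicate 2.

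SdhD, which encodes the second membrane anchor, was called differently by list. The other series-wide list held a peak of signal 220.5 at chr3R:23758175-23758303, and the list of replicate 1 held one of 128.3 at chr3R:23758028-23758111. These peaks share no base. The summit of the first was nearest to the start of PTPMT1, which encodes a mitochondrial phosphatase, and that of the second to the start of Hrd3, which encodes a protein of endoplasmic reticulum quality control. In the ranked list behind the main list the peak of 220.5 had an IDR score of 52, below the lowest main-list score of 830, so the main list left SdhD out. The highest overlapping peak was 8.97 in replicate 1 and 90.9 in replicate 2.

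Complex III, which hands electrons to cytochrome c, had 3 bound members of 9. UQCR-6.4L, a paralog of the small subunit gene UQCR-6.4, had a peak 1043 bp past its start with a signal of 99.4, and heights of 62.7 in replicate 1 and 34.4 in replicate 2. UQCR-C1 and UQCR-C2 encode the large core proteins of the complex. UQCR-C1 had peaks of 80.2 and 51.9, the second in its own coding exon. UQCR-C2 had a peak of 46.2, rank 3161, the lowest at any member. Only the peak of 80.2 at UQCR-C1 was in the list of replicate 2, and the only complex III peak in the list of replicate 1 was that of UQCR-6.4L.

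Complex IV, cytochrome c oxidase, had 5 bound members of 16, and 4 of its 8 subunit genes. COX5BL, a paralog of COX5B, had the highest peak, at chr2L:6561591-6561874, with a signal of 192.1 and heights of 89.3 in replicate 1 and 108.4 in replicate 2. The summit was 73 bp upstream of Trmt6, which encodes a tRNA methyltransferase subunit. COX5B and COX5BL also share a peak of 68 near the start of IFT52, a gene for intraflagellar transport.

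COX7C, a small subunit, had a peak 1903 bp upstream of its start, at chr2R:10046308-10046591, with a signal of 146.6, and heights of 78.9 in replicate 1 and 59.7 in replicate 2. COX5A had a peak of 81 at chr3R:11819354-11819637, with heights of 58.6 in replicate 1 and 27.3 in replicate 2. COX6B, whose human counterpart lies on the outer side of the membrane, had a peak of 67.9 with heights of 36.7 in replicate 1 and 39.3 in replicate 2. The COX5A summit lay inside the gene, in an intron and 103 bp before its nearest annotated start, and the COX6B summit lay 98 bp upstream of COX6B. In each case the start of another gene was nearer, glo (an RNA-binding protein gene) for COX5A and CG33932 for COX6B. The COX5A peak was listed in replicate 1 alone and the COX6B peak in replicate 2 alone.

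Complex V, the ATP synthase, had 3 bound members of 15. ATPsynE, which encodes the membrane subunit e, had its higher peak in its 5′ UTR, 58 bp past its start at chr3R:14326863-14327146. The signal was 114.3, with 51.2 in replicate 1 and 63.1 in replicate 2, and both replicate lists held it. ATPsynD, which encodes subunit d of the peripheral stalk, had a peak of 75.5 nearest to CG6040, with 43.5 in replicate 1 and 34.4 in replicate 2. ATPsynCF6, the coupling factor gene, had peaks of 60.3 and 46.3, and the lower of them lay 87 bp upstream of its own start. ATPsynbeta, which encodes the catalytic subunit beta, had no peak in either ranked list, and neither had ND-49, a core complex I gene. Both genes lie on chromosome 4, which carries 2 members. The other members without a ranked peak in either replicate were ND-AGGG, ND-20 and ND-MLRQ.

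**Figure D2:**
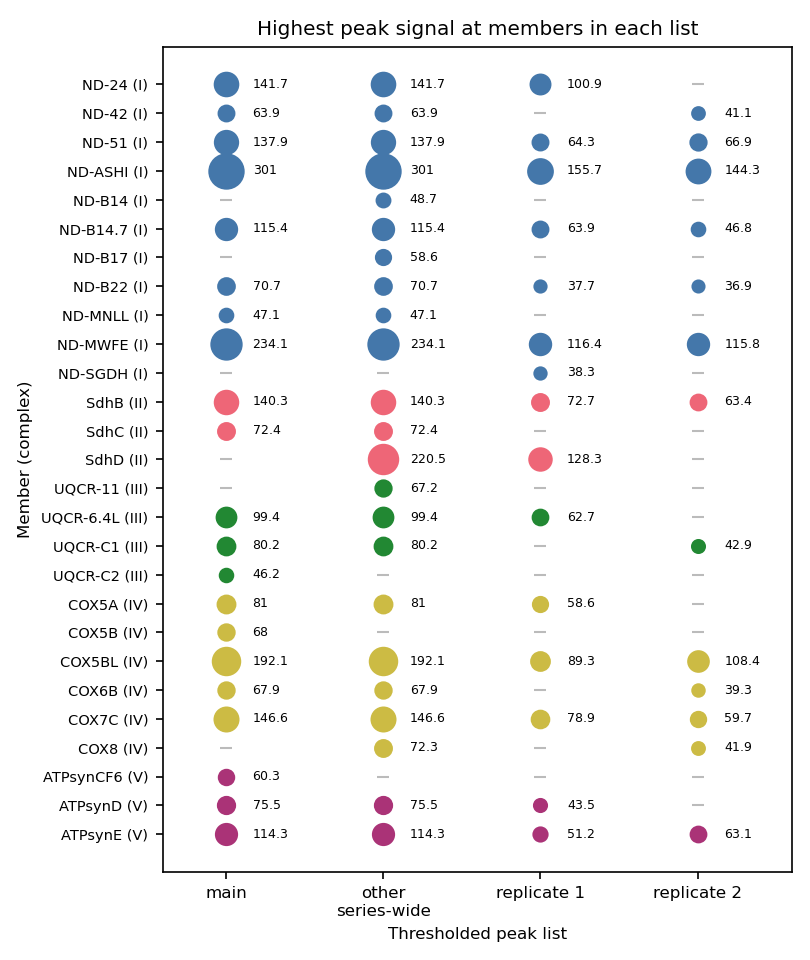
Highest peak signal (number and dot area) at the 27 members with a summit within 2 kb in at least 1 of the 4 thresholded lists, by list (x axis) and grouped by complex (colour, numeral in brackets). A grey dash marks a list without a summit there. ND-ASHI, ND-MWFE and COX5BL have the highest main-list dots, and 9 members have a dot in all 4 lists.

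The 4 thresholded lists did not hold the same members. In all, 27 of the 88 members were bound in at least 1 list, beside 4249 of 13968 protein-coding genes, and 61 members were in none. All 4 lists held 9 members, beside 2308 of all genes. The 9 were ND-51, ND-ASHI, ND-B14.7, ND-B22, ND-MWFE, SdhB, COX5BL, COX7C and ATPsynE. Of the 25 distinct main-list summits at members, 9 were in neither replicate list. The main list held 3 members that the other series-wide list did not, COX5B, UQCR-C2 and ATPsynCF6. The other list held 5 that the main list did not. Besides SdhD these were COX8 with a peak of 72.3, UQCR-11 with 67.2, ND-B17 with 58.6 and ND-B14 with 48.7. The summits of COX8, UQCR-11 and ND-B17 were within 140 bp of their own starts. COX8 was also in the list of replicate 2 (41.9), and ND-SGDH, an accessory complex I subunit, was in that of replicate 1 and no other list (38.3). The plot of peak signal by list shows these members one under the other.

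The replicates gave like heights at most member peaks of the main list. That list was thresholded on how well peaks recur between rankings, so like heights are partly built into it. Over the 25 distinct main-list summits at members, the height in replicate 1 over that in replicate 2 had a median of 1.02 and a range from 0.748 to 2.57, beside a median of 1.07 over all main-list peaks. Of the 25 ratios, 21 (84%) were within a factor of 1.5, beside 77.3% of all main-list peaks, and the other 4 (ND-24, COX5A, UQCR-6.4L and SdhC) were higher in replicate 1. The highest ranked-list peak at the 21 bound members had a median of 51.2 in replicate 1 (24.9 to 155.7) and 39.3 in replicate 2 (24.8 to 144.3). Among the 67 members not bound it had a median of 15.6 in replicate 1 (0 to 128.3) and 19.6 in replicate 2 (0 to 96). Over all 88 members the medians were 17.8 and 22.5, beside 20 and 22.2 over all genes. In the plot of replicate 2 against replicate 1, most members that were not bound lie below those that were bound. The calls come from peaks of the same replicates, so this contrast is built into them and is no separate result.

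**Figure D3:**
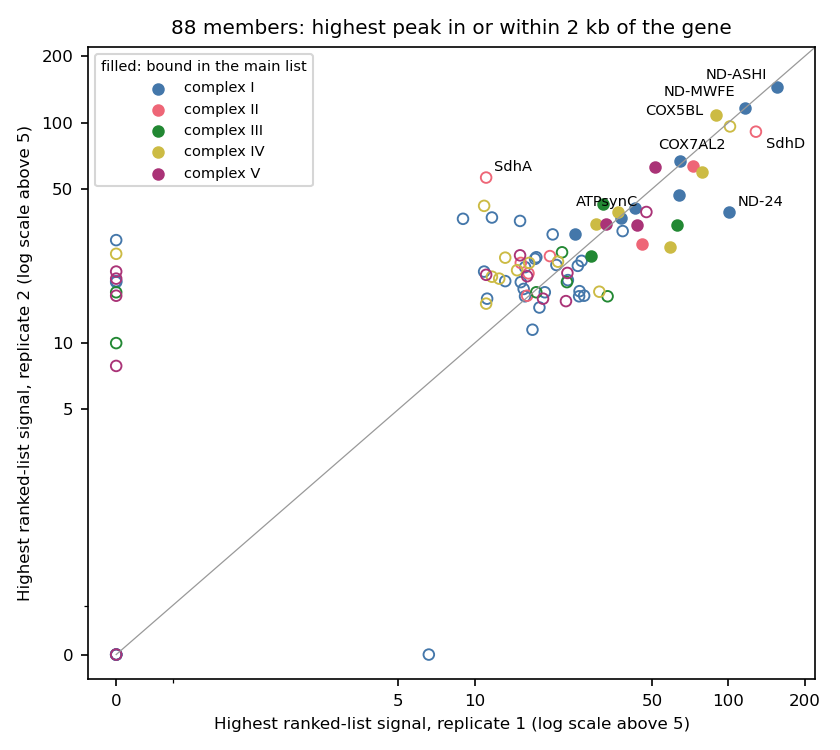
Height of the highest ranked-list peak in or within 2 kb of each of the 88 members in replicate 1 (x axis) and replicate 2 (y axis), deposited signal, on scales that are logarithmic above 5 and linear below. Filled points are bound in the main list, colours give the complex, and the line marks equal heights. Filled points lie along the line, with ND-24 and, less so, COX5A, UQCR-6.4L and SdhC below it. The open points SdhD and COX7AL2 stand among the filled ones, but the heights of SdhD in the replicates come from different peaks.

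The peaks at members had a lower median signal than the list as a whole. The 25 summits had a median signal of 75.5, beside 90.1 for all main-list peaks, and 10 of them were above that median. The highest 325 peaks of the list held only the ND-ASHI peak among the member peaks, 1 of 25 (4%), beside 10.1% of all main-list summits in or near a protein-coding gene. By gene, the highest peak had a median of 81 over the 21 bound members, beside 146.1 over bound cytosolic ribosomal protein genes, 131.3 over bound mitochondrial ones and 109.6 over all bound genes.

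Many of the summits that made a member bound lay at the start of a neighbour. Of the 25 distinct summits, 18 (72%) were within 500 bp of some protein-coding start, beside 47.6% of the 2915 main-list summits in or within 2 kb of a protein-coding gene. Most members are short, which leaves little sequence far from a start, and this share was not compared among short genes. Of the 21 bound members, 13 had a summit within 500 bp of their own start, which is 14.8% of all 88 members (8.84 to 23.7%), beside 13.2% of all genes. In each replicate list 8 members had such a summit. Yet only 10 bound members (47.6%) had a summit whose nearest start was their own, beside 54.7% of all bound genes. They were ND-24, ND-B14.7, ND-B22, ND-MNLL, UQCR-6.4L, UQCR-C1, UQCR-C2, COX7C, ATPsynCF6 and ATPsynE. For the other 11, ND-MWFE and COX5BL among them, every main-list summit was nearer to a neighbour. For 2 of these, ND-ASHI in both replicate lists and ND-51 in that of replicate 1, the member itself was the nearest start by the replicate's own summit. The data do not say which gene of such a pair a peak acts on.

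**Figure D4:**
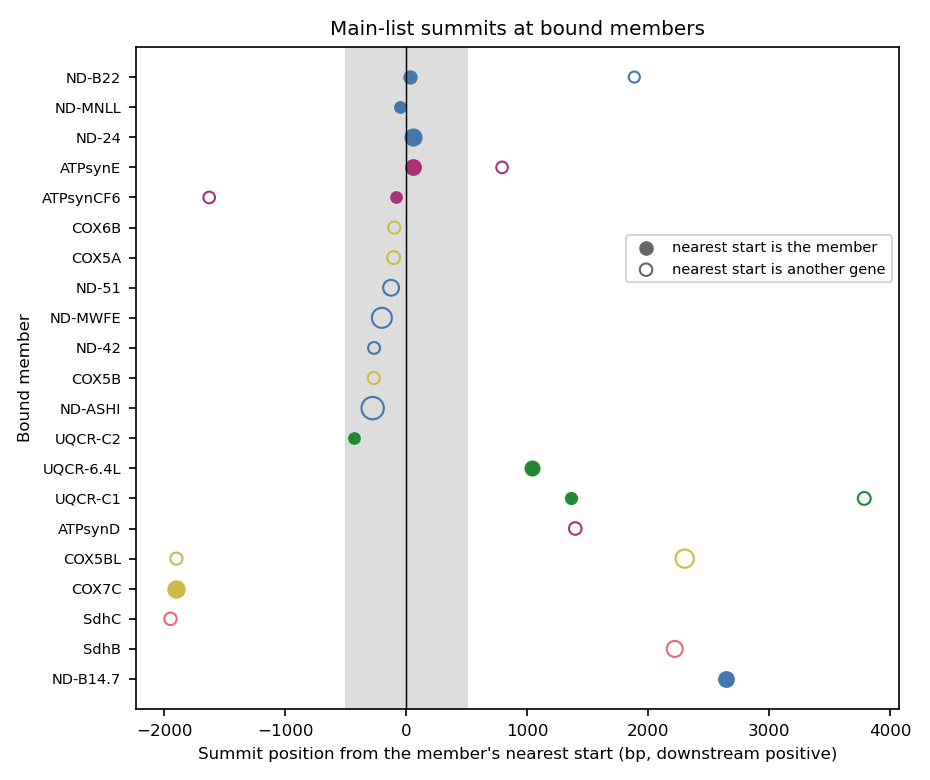
Position of each main-list summit relative to the nearest annotated start of the bound member (x axis, bp, positive downstream), with members ordered by their closest summit. The grey band is 500 bp to each side, dot area grows with the signal, colours give the complex, and filled points mark summits whose nearest start is that of the member. Of the 13 members with a summit in the band, 7 have only open points there.

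Neighbours on the other strand were counted by the outermost 5′ end of each protein-coding gene. Such an end lay within 1000 bp upstream of that of 37 members (42%), beside 33.3% of all genes. Of these 37, 11 were bound (29.7%), beside 37.1% of all genes with such a neighbour. Of the 51 members without one, 10 were bound (19.6%), beside 21.2% of all genes without one. Other annotated starts of a neighbour were not counted. ND-ASHI and ND-MWFE are thus among those 10, though their peaks lie near starts of Fum1 and TppII. By arm, 7 of 20 members were bound on 3R, beside 27.6% of all its genes, 4 of 13 on X (26.8%), 4 of 16 on 2L (25.2%), 4 of 17 on 2R (25.1%), 2 of 20 on 3L (28.4%) and 0 of 2 on 4 (1.25%). The counts per arm are small.

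Motifs of housekeeping promoters were searched next, from 250 bp before to 50 bp after the start of each gene, on both strands. The M1BP word GGTCACACT was in 15 of 88 member promoters (17%, 10.6 to 26.2%), beside 6.04% of all promoters. Of these, 14 belonged to the 63 subunit genes (22.2%) and 1 to the 24 paralogs (4.17%). The promoters with the word included those of COX4, COX5A, COX5B, ND-MWFE and ATPsynD. The DRE word TATCGATA was in 9 member promoters (10.2%, 5.47 to 18.3%), beside 9.36% of all promoters, and in none of the paralogs. Among mitochondrial ribosomal protein genes, 11% of promoters held the M1BP word and 20.5% the DRE word. Among cytosolic ribosomal protein genes these shares were 9.78% and 30.4%. Of the 15 members with the M1BP word 4 were bound (26.7%), beside 36.1% of all genes with it, and of the 9 members with the DRE word only ND-MNLL was bound (11.1%), beside 32.8% of all genes with that word.

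Other words differed less from the background of all promoters than the M1BP word did. The BEAF-32 word CGATA, which is contained in the DRE word, was in 52.3% of member promoters and 47.3% of all. TATAAA was in 55.7% and 45.8%, the E-box word CAGCTG in 23.9% and 17.6%, the homeodomain core TAATTA in 23.9% and 20.4%, and ACAGTG in 17% and 13.9%. The GAGA factor word GAGAG was in 22.7% and 29.7%, and the E-box word CACGTG in 4.55% and 4.2%. For each of these 7 words the share of all promoters lay inside the members' 95% interval.

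**Figure D5:**
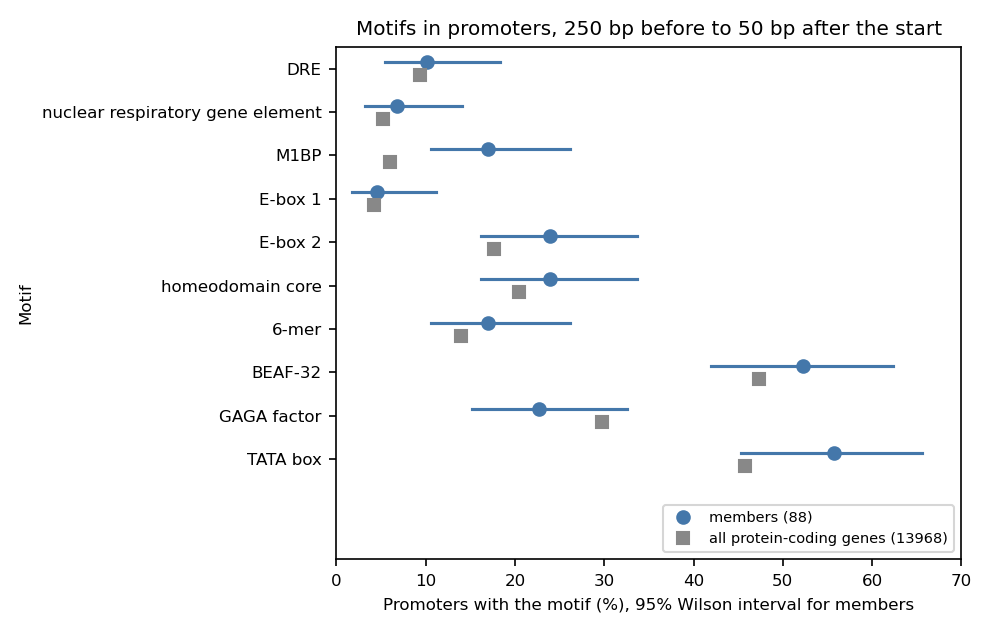
Share of promoters (250 bp before to 50 bp after the start) that hold each motif (x axis, percent) for the 88 members (blue circles, 95% Wilson intervals) and all 13968 protein-coding genes (grey squares). E-box 1 and 2 are the words CACGTG and CAGCTG, and the 6-mer is ACAGTG. The grey square lies outside the members' interval for M1BP alone, with 17% for members and 6.04% for all genes.

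The nuclear respiratory gene element, a word described in mitochondrial genes of Drosophila, was searched as TTACGTAA, TTACATAA and TTATATAA. It was in 6 member promoters (6.82%, 3.16 to 14.1%), beside 5.18% of all, and the members were ND-30, ND-42, ND-49, ND-MNLL, ND-SGDH and Sdhaf3. Of these ND-42 and ND-MNLL were bound. Their sites are shown above those of ND-30 and ND-SGDH, which the main list left unbound, with the word in capitals on the strand of the gene. The pairs were chosen after their values were seen. The sites lie at chr3R:22027545-22027592 (plus strand) for ND-42, chrX:7893857-7893904 (minus strand) for ND-MNLL, chr3L:3159712-3159759 (minus strand) for ND-30 and chr3L:12138643-12138690 (minus strand) for ND-SGDH.
ND-42: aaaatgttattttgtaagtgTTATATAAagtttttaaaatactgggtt
ND-MNLL: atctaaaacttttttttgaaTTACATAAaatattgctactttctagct
ND-30: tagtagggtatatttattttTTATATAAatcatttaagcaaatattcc
ND-SGDH: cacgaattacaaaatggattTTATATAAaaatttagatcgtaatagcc
The word began 144 bp upstream of the start in ND-42, 86 bp in ND-MNLL, 161 bp in ND-30 and 86 bp in ND-SGDH. ND-42, ND-30 and ND-SGDH hold the word TTATATAA and ND-MNLL holds TTACATAA. Of the bound pair, ND-MNLL had its word within 100 bp of the main-list summit and ND-42 did not. The list of replicate 1 did hold a peak at ND-SGDH, with its summit 83 bp upstream of the start and thus by the word. The main list, the other series-wide list and that of replicate 2 held none there.

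Within 100 bp of the 25 member summits the picture was another. The M1BP word was in 0 of 25 windows (upper limit of the interval 13.3%), beside 1.29% of all main-list windows, and the DRE word was in 1, at ATPsynE, beside 2.68%. The E-box word CAGCTG was in 6 windows (24%, 11.5 to 43.4%), beside 9.75% of all windows, at ND-51, ND-B22, UQCR-6.4L, ATPsynE, ND-42 and ATPsynCF6. TAATTA was in 4 (16%) beside 15.4%, ACAGTG in 4 (16%) beside 22%, CGATA in 10 (40%) beside 27.2%, GAGAG in 4 (16%) beside 24.2% and TATAAA in 11 (44%) beside 33.5%. Since ACAGTG was picked from earlier results, its share over all windows is not independent of that choice. CACGTG was in 0 windows beside 1.97%, and the nuclear respiratory words were in 1, at ND-MNLL, beside 3.85%. The median GC content was 34.8% in the member windows and 36.3% in all windows, and its part in these shares was not tested.

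Genes of the pathway that the symbol rule does not take had a larger share bound, though the difference from the members was not tested. Over 6 lists, 36 of 37 symbols matched a gene, and 15 of the 36 were bound (41.7%, 27.1 to 57.8%), beside 26.5% of all genes. In each replicate list 12 were bound.

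Of the 8 genes of the complexes with other names, which are 7 subunit genes and the paralog Cyt-c1L, 6 were bound (75%, 40.9 to 92.9%). Without Cyt-c1L, 5 of 7 were bound (71.4%, 35.9 to 91.8%). The highest peak was at blw, ATP synthase subunit alpha, with a signal of 491.3 and heights of 270.0 in replicate 1 and 217.7 in replicate 2. It lay 3861 bp past the start of blw and was nearest to CycB, the cyclin B gene. The others were levy, a complex IV subunit (172.4), Cyt-c1L, a cytochrome c1 paralog (153.7), RFeSP, the Rieske iron-sulfur protein of complex III (118.4), cype, another complex IV subunit (90.9), and ox, a small subunit of complex III (57.8). As at blw, the peaks at levy, RFeSP, cype and ox were each nearest to the start of another gene, and that at Cyt-c1L was nearest to its own. Cyt-c1 and sun, which encodes ATP synthase subunit epsilon, were not bound. Both cytochrome c genes, which carry electrons between complexes III and IV, were bound. Cyt-c-d had a peak of 293.6, with 153.5 in replicate 1 and 140.7 in replicate 2, and Cyt-c-p one of 239.6, with 119.5 in replicate 1 and 115.4 in replicate 2. Each was close in the replicates, and both replicate lists held both. The peak at Cyt-c-d was nearest to the start of CG31808, and that at Cyt-c-p was nearest to its own.

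Genes next to oxidative phosphorylation in function had counts that varied by list. None of 5 genes for nucleotide and phosphate exchange (sesB, Ant2, Mpcp1, Mpcp2 and porin) was bound. Of 4 assembly genes 1 was bound, Cchl, through the peak it shares with ND-42. Of 10 tricarboxylic acid cycle genes 4 were bound, namely Fum1 through the peak it shares with ND-ASHI (301.0), Idh3g (166.9), kdn, the citrate synthase gene (153.4), and mAcon1, an aconitase gene (68.8). Of 7 regulators, Dref (126.0) and M1BP (74.6) were bound, and ewg, srl, Ets97D, TFAM and mtTFB2 were not. The summit at Dref lay 63 bp upstream of its start and was nearer to the ribosomal protein gene RpL13.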

How the data were processed

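Rx-eGFP ChIP-seq peaks of 2 biological replicates of 0 to 24 h Drosophila embryos, in 1 group, were analysed from lists on dm6, per the labels. The authors deposited a peak signal, whose scale is not given, and an IDR score, a whole number whose lowest value in the main list was 830. The aligner and caller used were not given in the sources used here. No read counts were used, so depth is unknown.

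Genes came from Ensembl release 115 (BDGP6.54) and sequence from the RefSeq Release 6 genome. Summits were compared with genes and starts of all protein-coding transcripts in Python 3.11.15 with pandas 2.3.3 and numpy 2.4.6. Words were searched 100 bp to each side of summits. Intervals are 95% Wilson intervals and cover counting error only. The scripts were tested on simulated data. No test was made, since there was 1 group.

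The members and lists were chosen with earlier results of these data known. Every bound member could be named, along with members called in other lists and members with the highest ranked peaks. Of the 8 summit windows the rule takes, 3 within 5′ UTRs are not printed. Alternatives were other lists, the highest peaks, other distances, windows and assignments.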

Additional observations from a re-analysis of the deposited data

Results flagged for a closer look

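COX7AL2 and ATPsynC had peaks outside the lists used for the comparisons. In the ranked list behind the main list, a peak 1438 bp upstream of COX7AL2, a complex IV paralog, at chr2L:2199310-2199388 had a signal of 209.2 and an IDR score of 1000, and would have ranked 417 in the main list. Its height was 101.4 in replicate 1 and 96 in replicate 2. A peak 74 bp upstream of ATPsynC, which encodes the ring subunit c of the ATP synthase, at chr3R:31219562-31219845 had a signal of 93.7 and a score of 1000, and would have ranked 1542. Its height was 47.5 in replicate 1 and 39.3 in replicate 2. Both scores exceed the lowest main-list score of 830, yet no thresholded list holds either peak. On the arms, 85 ranked peaks with a score of at least 830 are absent from the main list, of which 83 overlap no peak of any thresholded list, and the sources used here do not give a reason for their absence. No control sample was analysed here, so a background level at these sites was not measured.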

How the results depend on the processing

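The count of 21 bound members was 23 in the other series-wide list, 21 with any overlap of the whole peak, 19 for subunits alone, and 23 with the high-score peaks absent from the main list added, an alternative chosen after seeing the data. It was 10 (11.4%) with the highest 50% of peaks, beside 16.2% of all genes, and 5 (5.68%) with no flank, beside 9.4%. It was 52 (59.1%) with a 10 kb flank, beside 51.6%, and 11 (12.5%) when each summit was given only to the nearest start, beside 2319 of 13968 genes. Leaving out a replicate gave 13 (14.8%, beside 20%) to 15 (17%, beside 21.3%). In every setting that was compared with all genes, the members' share was below theirs, except with the 10 kb flank. Beside genes of at most 5 kb, the share of members of that length was the higher (25.6% beside 21.4%, main list).

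Members with a summit within 500 bp of their own start numbered 13, 8 to 8 with a replicate left out (9.09%, beside 10.4% and 9.59% of all genes), 5 with the highest 50% of peaks (5.68%, beside 7.82%) and 9 within 200 bp (10.2%, beside 9.19%). By complex, the highest 50% of peaks gave 5 in I, 1 in II, 1 in III, 2 in IV and 1 in V, and leaving out a replicate gave 6 to 7 in I, 1 to 2 in II, 1 to 1 in III, 3 to 4 in IV and 1 to 2 in V. Of 30 motif shares under other windows, 25 stayed inside the interval. With 50 bp to each side, DRE was at 0%, CAGCTG at 8%, TAATTA at 4% and TATAAA at 20%. The M1BP word was in 0% of summit windows and in 19% of the bound members' promoters. The cause of these shifts was not tested, but a list of fewer peaks can call fewer genes and a narrower window can hold fewer words by construction. No paired analysis was possible because there was 1 group. Depth is unknown, and with 25 summits a share has a wide interval.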
